A study of Sus scrofa with 6 samples.

Results

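The ZNF genes are the genes of the pig annotation whose symbol is ZNF followed by a number and at most 1 letter. They were taken by symbol from the gene table, ZNF423 was left out, and the members were then selected on their measured level: a gene was kept when its FPKM exceeded 0.1 in at least 3 of the 6 samples, whatever their group. FPKM counts the sequenced fragments of a gene per transcript length and per mapped fragments of the sample, so levels of different genes can be set side by side. The table named 230 such entries among 22164 genes. Of these, 220 passed the filter, among 17708 genes that passed it in all, and 10 did not. The 230 entries held 229 symbols, since ZNF850 was listed under 2 gene IDs.

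The samples were porcine preadipocytes, precursors of fat cells, from subcutaneous adipose tissue of 5-day-old Junmu white pigs. For 48 h the TGF-β1 group was kept with human recombinant TGF-β1 (10 ng/mL), and the negative control (NC) with citric acid (10 mM). Each group had 3 samples, described in the study as biological replicates. Whether the TGF-β1 samples also held citric acid, and whether each sample came from a separate pig, was not stated, so p-values measure the spread between these 6 samples.

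Most ZNF proteins bind DNA through rows of C2H2 fingers, short loops that each hold a zinc ion and read a few bases. Many also carry a KRAB domain, which recruits the corepressor TRIM28 and with it SETDB1, HP1 proteins and histone deacetylases, and these silence transposons and some genes. Others carry a SCAN domain for pairing with each other, or no such domain, and act on promoters, chromatin or RNA. In preadipocytes, ZNF521, ZNF467, ZNF516 and ZNF638 are known, mostly from mouse cells, as factors that hold back or favour the fat cell fate.

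The ZNF symbol did not mark transcription factors alone. ZNF185 is a LIM-domain protein of the actin cytoskeleton. ZNF259 (ZPR1) is a chaperone of translation factors. ZNF622 acts in the maturation of the large ribosomal subunit, ZNF598 is a ubiquitin ligase for collided ribosomes, and ZNF207 (BuGZ) is a spindle protein. The names matched 189 symbols of the RefSeq gene table for assembly Sscrofa11.1, and 40 had no match there. The files rest on an older build and give no positions, so no coordinates are given.

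Of 8 markers of preadipocyte stroma 7 were found. THY1 stood between 152 and 205 FPKM and PDGFRA between 67.3 and 189, while CD34 stood between 1.25 and 3.27 and ENG between 3.65 and 5.26. The summed FPKM of 4 adipocyte markers was 22, 30.5 and 31.3 in NC and 16, 18.3 and 20.2 with TGF-β1, and DES, a muscle marker, measured 425, 356 and 269 FPKM in NC and 583, 469 and 432 FPKM with TGF-β1. Neither the adipocyte sum nor DES overlapped between the groups. Over all genes, 14.3% were separate and lower and 3.83% separate and higher. Of the 4 adipocyte markers only PPARG was separate. CEBPA ran from 16.1 to 25.2 FPKM in NC and from 12.4 to 16.3 FPKM with TGF-β1, and it overlapped, as did ADIPOQ and PLIN1. None of these genes passed (limma adjusted p = 0.225 for PPARG, 0.480 for CEBPA and 0.514 for DES). Markers of other cell types were also found. The summed FPKM of 5 macrophage markers was 31, 86.9 and 113 in NC samples 1 to 3 and 13.6, 47.6 and 71.4 in TGF-β1 samples 1 to 3, so sample 1 of each group held the least. The summed FPKM of 5 epithelial markers was at most 0.250 in NC and between 3.54 and 5.00 with TGF-β1, and KRT5 was listed at 0 in every NC sample. In limma KRT5 (adjusted p = 0.00029) and KRT8 (0.073) passed, both higher with TGF-β1, while KRT14 (0.322) and EPCAM (0.393) did not. The filter kept KRT5 and KRT8 through their TGF-β1 values alone, so they had to be higher there. CDH1 was not tested. The summed FPKM of 3 endothelial markers was between 4.26 and 13.4, with VWF at or near 0, and CDH5, CD68 and DLK1 were not found by name. Depth relative to NC sample 1, estimated from low FPKM values, was 0.881 and 0.778 for the other NC samples and 0.740, 0.798 and 0.842 with TGF-β1 (p = 0.3 in a two-sided exact permutation test, and 3 against 3 cannot go below 0.1). The part of these differences in the ZNF values was not tested. In bulk RNA, fewer cells of a type and less RNA per cell cannot be told apart.

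ZNF genes were widely but weakly expressed in the preadipocytes. Their mean FPKM over the 6 samples had a median of 2.37, with quartiles at 1.19 and 4.60. The median of the 17488 other genes was 3.78, with quartiles at 0.756 and 12.4. Beside all other genes, the ZNF genes were gathered in the middle of the range. Only 7.73% of them reached 10 FPKM, against 29.3% of the other genes, and 0 of 220 reached 50 FPKM, against 6.34%. At the low end, 18.2% were under 1 FPKM, against 28.4%. Every ZNF gene has a name, while only 14508 of the other genes had 1. Of these named genes 20.3% were under 1 FPKM, so the contrast at the low end was smaller. Their quartiles were at 1.41 and 15.2 FPKM. Since the filter used these values, the levels are a description. Related families of zinc finger genes differed. The median mean FPKM was 2.98 for 31 ZBTB genes, 1.21 for 15 ZSCAN and ZKSCAN genes, 1.77 for 12 ZFP genes and 4.50 for 16 KLF genes. Of the KLF genes 37.5% reached 10 FPKM, and of the ZSCAN and ZKSCAN genes 46.7% were under 1 FPKM.

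The number of ZNF genes above 0.1 FPKM was 219, 220 and 219 in NC and 218, 217 and 217 with TGF-β1. Above 1 FPKM there were 187, 178 and 177 in NC and 171, 170 and 174 with TGF-β1. The NC samples thus held more ZNF genes above either level, though the margin at 0.1 FPKM was 1 gene. Counts of all genes above these levels were not taken, and 66.9% of all genes had a log2 fold change below 0. The difference in counts therefore cannot be called particular to ZNF genes. The median ZNF level was 2.52, 2.47 and 2.37 FPKM in NC and 2.31, 2.11 and 2.27 FPKM with TGF-β1. The median of the other genes moved alongside, from 3.83, 3.94 and 3.78 FPKM in NC to 3.59, 3.63 and 3.56 FPKM with TGF-β1. As a share of all FPKM in the table, the ZNF genes held 0.199%, 0.204% and 0.197% in NC and 0.195%, 0.201% and 0.206% with TGF-β1. That share overlapped between the groups.

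**Figure D1:**
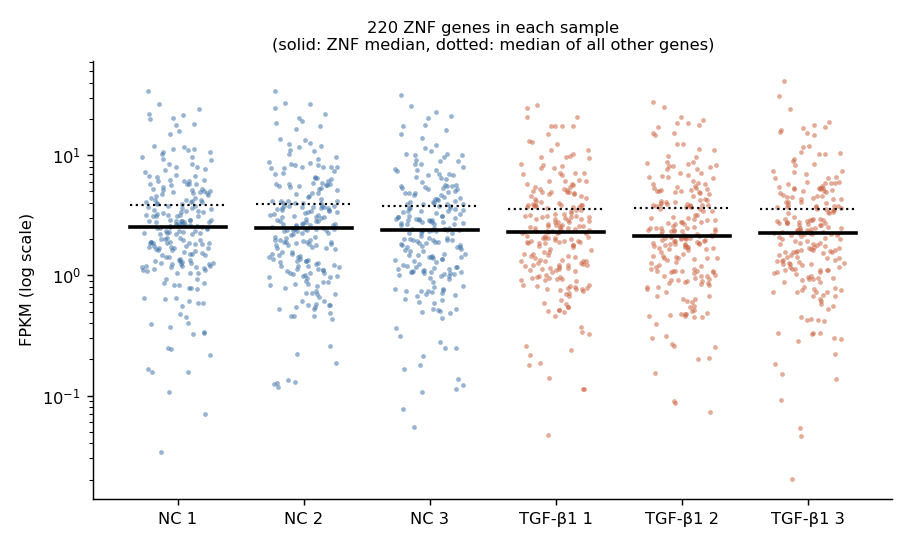
FPKM of the ZNF genes in each sample on a log axis, with 1 point per gene, a solid line at the ZNF median and a dotted line at the median of all other genes. Values of 0 (ZNF322A in TGF-β1 sample 1 and ZNF391 in TGF-β1 sample 2) are not drawn. The solid lines lie between 2.37 and 2.52 in NC and between 2.11 and 2.31 with TGF-β1.

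Of the 220 kept genes, 213 were above 0.1 FPKM in all 6 samples. ZNF510 passed the filter through its NC values alone (0.108, 0.129 and 0.108 FPKM, against 0.0471, 0.0903 and 0.0540 with TGF-β1), so it had to be lower with TGF-β1 and supports nothing. No ZNF gene was kept through TGF-β1 values alone. The weakest genes inside the filter were ZNF510, ZNF488 and ZNF132, with mean FPKM of 0.0893, 0.124 and 0.159. The strongest outside it were ZNF541, ZNF536 and ZNF551, with 0.138, 0.0629 and 0.0156. The other 7 outside were ZNF311, ZNF334, ZNF594, ZNF157, ZNF385B, ZNF750 and ZNF804A, and the highest mean among them was 0.0124 FPKM. Of these 10 genes, 5 were listed at 0 in every sample of at least 1 group: ZNF594, ZNF311 and ZNF804A with TGF-β1, and ZNF157 and ZNF750 in NC. A gene listed at 0 may only have failed to be estimated, so no fold change was taken from them.

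Few of the most abundant ZNF transcripts were those of KRAB repressors. ZNF706, known in mouse as a repressor of Klf4 in embryonic stem cells, was first with a mean of 30.5 FPKM. It was followed by ZNF511 with 25.9, ZNF75D with 21.0, ZNF106 with 20.8 and ZNF24 with 18.9. Next came ZNF638, ZNF16, ZNF207, ZNF259 and ZNF277, between 18.5 and 16.7 FPKM. ZNF75D was the only 1 of these 10 on the list of KRAB genes below. Neighbours in this order were close: ZNF638 and ZNF16, for example, overlapped in their samples (16.7 to 20.5 and 15.3 to 20.6 FPKM).

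ZNF706 measured 34.0, 34.2 and 31.6 FPKM in NC and 24.5, 27.6 and 30.8 FPKM with TGF-β1. Every TGF-β1 sample was below every NC sample, though the highest TGF-β1 value came within 1 FPKM of the lowest NC value. The log2 fold change was −0.27 ± 0.118 (SE, n = 3 per group, limma adjusted p = 0.526). ZNF24, a SCAN-domain protein known in human cells as a repressor of VEGF transcription, measured 22, 24.6 and 15 FPKM in NC and 20.8, 15.3 and 15.5 FPKM with TGF-β1. Its groups overlapped. ZNF511 and ZNF259 were among the steadiest members, at 24.4 to 27.1 FPKM and 16.3 to 18.0 FPKM over the 6 samples.

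The comparison of the groups asks whether TGF-β1 changed ZNF transcript levels in preadipocytes after 48 h. No ZNF gene passed the test. Each gene was tested on log2(FPKM + 0.1) with limma over all 17708 genes, with Benjamini-Hochberg adjustment and a threshold of 0.1. Fold changes on this scale understate those of low genes. Over all genes, 17 passed, or 0.096%: 9 were higher with TGF-β1 (0.0508%) and 8 lower (0.0452%). The lowest adjusted p of a ZNF gene was 0.332, for ZNF384. At an unadjusted p below 0.05, 3 ZNF genes were higher, where the whole table had 2.72%, and 18 were lower, where the whole table had 7.26%. These make 1.36% and 8.18% of the ZNF genes. Without ZNF510 the lower genes were 17 of 219, or 7.76%. After quantile normalization, median-ratio scaling and scaling to the same total, 7, 9 and 7 ZNF genes were lower and 4, 4 and 6 higher at this p, where the whole table had 3.68%, 3.64% and 2.83% lower and 4.42%, 4.49% and 5.5% higher.

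Groups that did not overlap were counted next. With TGF-β1, 35 ZNF genes were below all NC samples, or 15.9%, where the whole table had 14.3%. Without ZNF510, which the filter bound to be lower, they were 34 of 219, or 15.5%. Above all NC samples were 5 ZNF genes, or 2.27%, where the whole table had 3.83%. The shares of the ZNF genes were thus near those of all genes. The surplus of lower genes depended on the scaling of the samples. After quantile normalization, median-ratio scaling and scaling to the same total, 15, 17 and 14 ZNF genes were lower and 13, 14 and 21 were higher. The whole table then had 7.51%, 7.27% and 5.59% lower and 7.62%, 8.0% and 9.97% higher. All 15, 17 and 14 belonged to the 35, and the 5 higher genes were kept under each scaling.

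The ZNF genes had a median log2 fold change of −0.12, with quartiles at −0.27 and 0.02. All other genes had a median of −0.10. Of 220 ZNF genes, 153 were below 0, or 69.5%, where the whole table had 66.9%. The ZNF median became −0.018 after quantile normalization, −0.027 after median-ratio scaling and 0.0016 after scaling to the same total, as the median of the other genes became −0.0084, −0.0044 and 0.024. The distance between both medians was −0.02, and it ranged from −0.05 to −0.0078 over the alternatives. Changes of single genes are therefore given beside the shift that all genes shared.

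Large changes were rare. For 183 ZNF genes (83.2%), the 95% interval of the log2 fold change lay within 1 in either direction. This held for 67.6% of the other genes and for 73.5% of those with a name. For 80 ZNF genes the interval lay within 0.5. An absolute log2 fold change above 1 was fitted for 5.45% of the other genes and 3.58% of those with a name. Among the ZNF genes it was fitted for 2 (0.909%), ZNF322A and ZNF558. Both had uneven TGF-β1 samples, described below. Over all levels, the median within-group SD on the log2 scale was 0.198 for ZNF genes, 0.236 for all other genes and 0.203 for those with a name. Beside genes with a name, the difference was thus small. By level, replicates of ZNF genes were closer than those of all other genes below 5 FPKM and wider above it. The split by level was not made for genes with a name alone. Among genes with a mean under 1 FPKM, the median within-group SD on the log2 scale was 0.29 for ZNF genes and 0.53 for the other genes. Between 1 and 5 FPKM it was 0.18 and 0.26, and from 5 FPKM up it was 0.16 and 0.13. Over the ZNF genes, pairs with TGF-β1 sample 1 correlated with r between 0.906 and 0.913, also within its group, and all other pairs with r between 0.949 and 0.967, a description across genes. Without ZNF322A, which was listed at 0 in that sample, its pairs lay between 0.953 and 0.961 and the others between 0.949 and 0.966.

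Members were split by the KRAB domain of their human counterparts, from a list written by hand after the values had been seen. It held 104 of the tested genes. Their median mean level was 1.90 FPKM, and 2.88% of them reached 10 FPKM. The 116 others had a median of 2.71 FPKM, and 12.1% reached 10 FPKM. The median log2 fold change was −0.18 on the KRAB list and −0.09 off it, with 78 of 104 and 75 of 116 below 0. Under the 3 scalings it was −0.07, −0.08 and −0.05 on the list and 0.0088, 0.0069 and 0.04 off it, so that the sign off the list turned. Without NC sample 1, the medians were −0.12 on the list and −0.11 off it. Groups did not overlap for 15 lower genes on the list (14 without ZNF510) and 3 higher ones, and for 20 lower and 2 higher genes off it. The lower genes made 14.4% on the list and 17.2% off it, where all genes had 14.3%. The higher genes made 2.88% and 1.72%, where all genes had 3.83%. These shares were near those of all genes.

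**Figure D2:**
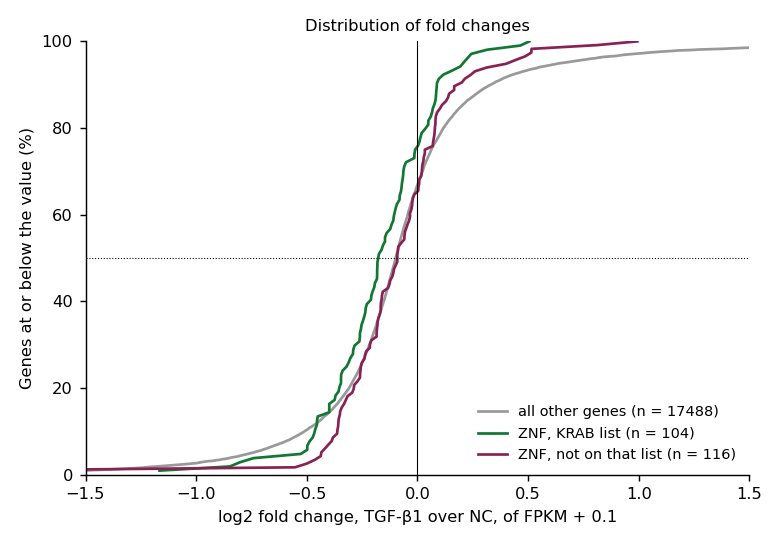
Cumulative share of genes (percent) by log2 fold change, TGF-β1 over NC, of FPKM + 0.1, for ZNF genes on the KRAB list (n = 104), ZNF genes not on it (n = 116) and all other genes (n = 17488). The axis ends at 1.5 in either direction, which leaves ZNF322A outside. The curves cross 50% at −0.18, −0.09 and −0.10.

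KRAB genes often lie in clusters of near-identical copies, whose reads can be shared between copies, so their FPKM is less certain. By gene order in Sscrofa11.1, 84 kept ZNF genes had another named ZNF gene, kept or not, within 5 protein-coding genes, and 97 did not. Kept genes without a match in the RefSeq gene table, among them both ZNF850 entries, were in neither set. They could not count as neighbours either, so some of the 97 may lie near an unmatched ZNF gene. The median log2 fold change was −0.12 in either set, and 0 genes of either set passed in limma, with 6 and 9 lower (7.14% and 9.28%, beside 7.26% of all genes) and 0 and 2 higher (0% and 2.06%, beside 2.72%) at an unadjusted p below 0.05. The 2 entries named ZNF850 differed in level, at 2.65 to 4.01 FPKM and 1.40 to 1.66 FPKM.

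The 10 ZNF genes with the lowest p among those lower in every TGF-β1 sample, with a mean of at least 1 FPKM, were ZNF384, ZNF605, ZNF256, ZNF414, ZNF106, ZNF449, ZNF185, ZNF277, ZNF711 and ZNF787. None passed the test. ZNF384, known in mouse as Nmp4, is a nuclear matrix protein that binds the promoters of matrix genes such as type I collagen. It measured 5.01, 5.71 and 5.68 FPKM in NC and 3.88, 3.84 and 3.78 FPKM with TGF-β1. The 3 TGF-β1 samples were nearly equal and all below the NC samples. The means were 5.47 ± 0.400 and 3.83 ± 0.0522 FPKM (SD, n = 3 per group), a ratio of 0.70. The log2 fold change was −0.50 ± 0.0957 (SE, n = 3 per group, limma adjusted p = 0.332), and between −0.41 and −0.37 under the 3 scalings. COL1A1, which encodes a type I collagen chain, measured 255, 250 and 271 FPKM in NC and 494, 341 and 370 FPKM with TGF-β1. It did not pass either (limma adjusted p = 0.396), and a link between COL1A1 and ZNF384 was not tested.

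ZNF605, on the KRAB list, measured 2.52, 2.26 and 2.66 FPKM in NC and 1.88, 1.64 and 1.55 FPKM with TGF-β1. ZNF256, a KRAB repressor, measured 1.86, 1.66 and 1.41 FPKM in NC and 1.21, 1.07 and 1.18 FPKM with TGF-β1. In both genes every TGF-β1 sample was below every NC sample, though ZNF256 no longer had separate groups after quantile normalization. Their log2 fold changes were −0.53 ± 0.118 and −0.47 ± 0.129 (SE, n = 3 per group, limma adjusted p = 0.348 and 0.411). ZNF414 measured 3.20, 2.92 and 2.78 FPKM in NC and 2.31, 1.80 and 2.29 FPKM with TGF-β1, with TGF-β1 sample 2 the lowest. ZNF449, a SCAN gene, measured 2.69, 2.76 and 2.91 FPKM in NC and 2.31, 2.18 and 2.27 FPKM with TGF-β1. Its difference was small, at −0.29 on the log2 scale, but its replicates were among the closest of all members, with a within-group SD of 0.05 on that scale.

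ZNF106 and ZNF277 were the most abundant of the 10. ZNF106, an RNA-binding protein whose loss in mouse leads to muscle and nerve degeneration, measured 21.4, 26.4 and 23.0 FPKM in NC and 17.3, 18.7 and 17.9 FPKM with TGF-β1. ZNF277, a partner of a ribosomal protein of the small subunit, measured 20.0, 18.6 and 17.6 FPKM in NC and 13, 14.7 and 16.1 FPKM with TGF-β1. Groups did not overlap for either, and ratios of means were 0.761 and 0.779. The adjusted p from limma was 0.418 for ZNF106 and 0.455 for ZNF277. ZNF787 averaged 9.73 ± 1.15 FPKM in NC and 7.57 ± 0.273 FPKM with TGF-β1 (SD, n = 3 per group).

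ZNF185, the actin cytoskeleton protein, measured 2.52, 2.60 and 2.79 FPKM in NC and 2.03, 1.83 and 2.27 FPKM with TGF-β1. After scaling to the same total its groups overlapped. ZNF711, an activator on the X chromosome in human that works with the histone demethylase PHF8, measured 2.26, 2.39 and 2.25 FPKM in NC and 1.93, 1.93 and 1.61 FPKM with TGF-β1. Their log2 fold changes were −0.36 and −0.32 (limma adjusted p = 0.454 and 0.457), and between −0.26 and −0.20 under the 3 scalings.

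Among ZNF genes higher in every TGF-β1 sample, 3 had a mean of at least 1 FPKM, and all 3 were on the KRAB list. ZNF227 measured 0.934, 1.11 and 1.13 FPKM in NC and 1.43, 1.2 and 1.38 FPKM with TGF-β1, a log2 fold change of 0.31 ± 0.120 (SE, n = 3 per group, limma adjusted p = 0.485). ZNF23, described as growth inhibitory in human tumour cells, measured 1.97, 1.69 and 1.96 FPKM in NC and 2.56, 1.98 and 2.19 FPKM with TGF-β1. Its TGF-β1 sample 2 stood only just above NC sample 1. ZNF862, which also carries a transposase-derived domain, measured 1.42, 1.5 and 1.47 FPKM in NC and 1.56, 1.81 and 1.57 FPKM with TGF-β1. The log2 fold changes of ZNF23 and ZNF862 were 0.24 ± 0.133 and 0.16 ± 0.0984 (SE, n = 3 per group, limma adjusted p = 0.588 and 0.630). Neither gene had an unadjusted p below 0.05. Under the 3 scalings the values of ZNF227, ZNF23 and ZNF862 ranged from 0.41 to 0.43, from 0.34 to 0.37 and from 0.25 to 0.28.

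**Figure D3:**
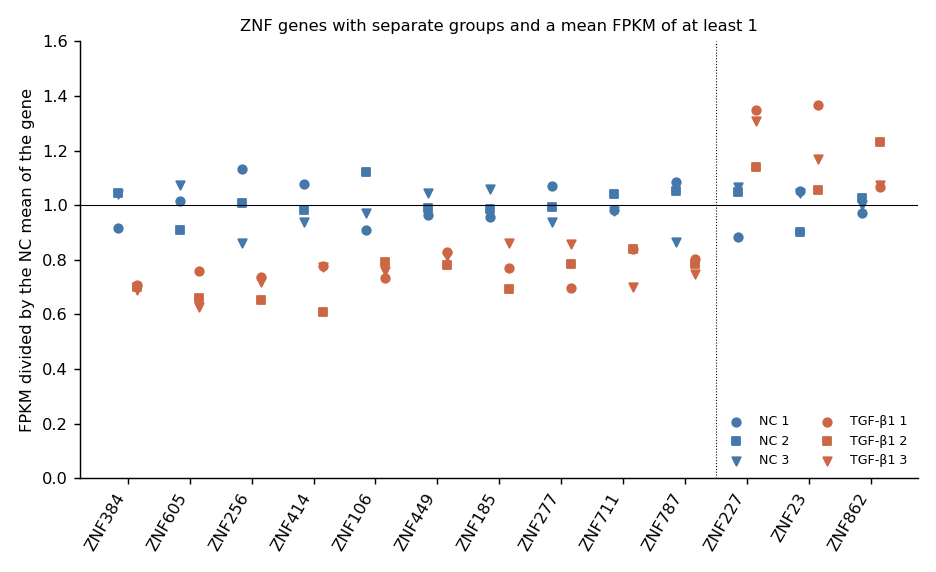
FPKM of each sample divided by the NC mean of the gene, for the 10 lower and 3 higher ZNF genes with groups that did not overlap and a mean of at least 1 FPKM. Each point is 1 sample, with NC in blue and TGF-β1 in orange, and the line marks the NC mean. The TGF-β1 mean of ZNF384 is 0.70 of the NC mean and that of ZNF227 is 1.27 of it.

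The other 2 higher genes were weak. ZNF366, a nuclear receptor corepressor known from dendritic cells, measured 0.156, 0.463 and 0.278 FPKM in NC and 0.576, 0.510 and 0.944 FPKM with TGF-β1. ZNF142 measured 0.218, 0.187 and 0.124 FPKM in NC and 0.326, 0.252 and 0.297 FPKM with TGF-β1. Their log2 fold changes were 0.99 ± 0.356 and 0.51 ± 0.167 (SE, n = 3 per group, limma adjusted p = 0.473 and 0.455). Among the weak lower genes, ZNF432 measured 0.652, 0.616 and 0.739 FPKM in NC and 0.457, 0.474 and 0.429 FPKM with TGF-β1, and ZNF132 measured 0.246, 0.220 and 0.215 FPKM in NC and 0.141, 0.0868 and 0.0463 FPKM with TGF-β1. In ZNF132, 2 of the 3 TGF-β1 values were below the filter minimum. Both are on the KRAB list, did not pass (limma adjusted p = 0.348 and 0.375) and were chosen after their values were seen.

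Some members were uneven within a group, and they were also chosen after their values were seen. ZNF558, a KRAB gene, measured 8.40, 8.31 and 8.43 FPKM in NC and 2.33, 8.07 and 2.61 FPKM with TGF-β1. The NC samples were nearly equal, TGF-β1 samples 1 and 3 were far lower, and TGF-β1 sample 2 was just below NC. The log2 fold change was −1.17 ± 0.485 (SE, n = 3 per group, limma adjusted p = 0.514). Without TGF-β1 sample 2 it was −1.72, with an adjusted p of 0.0547, and ZNF558 was then the only ZNF gene that passed. Over the other alternatives its adjusted p ranged from 0.408 to 0.822.

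ZNF322A measured 9.35, 11 and 9.15 FPKM in NC, was listed at 0 in TGF-β1 sample 1, and measured 9.90 and 9.25 FPKM in TGF-β1 samples 2 and 3. Without TGF-β1 sample 1 its log2 fold change was −0.04. ZNF207 measured 11.997, 13.627 and 10.204 FPKM in NC and 12.9, 17.0 and 41.5 FPKM with TGF-β1. Only TGF-β1 sample 3 was far above the rest, and without it the log2 fold change of ZNF207 went from 0.81 to 0.32. Whether these jumps came from the sharing of reads between transcripts was not tested.

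**Figure D4:**
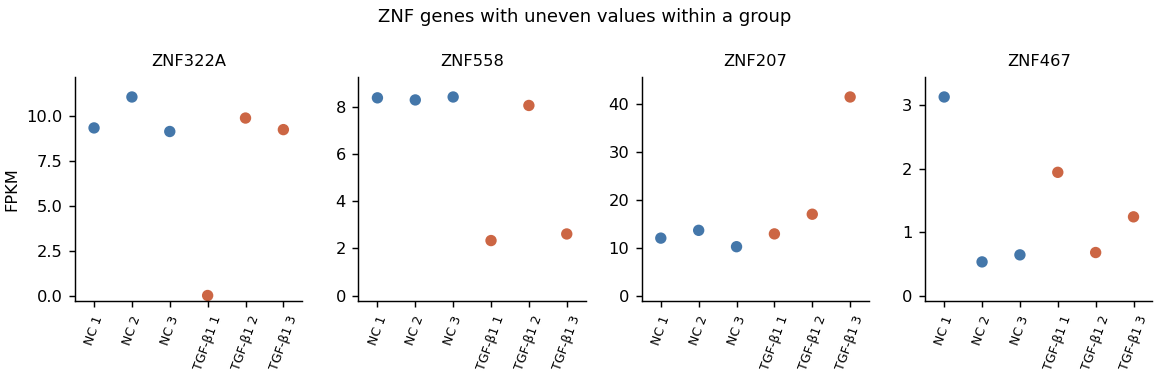
FPKM of ZNF322A, ZNF558, ZNF207 and ZNF467 in the 3 NC samples (blue) and the 3 TGF-β1 samples (orange), with 1 point per sample and a separate linear axis for each gene. In ZNF558, 2 TGF-β1 samples lie at 2.33 and 2.61 and the other at 8.07, beside NC values from 8.31 to 8.43.

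Of 7 ZNF genes known for a role in fat cells, 0 passed in limma, 0 had an unadjusted p below 0.05, and the groups of all 7 overlapped. Their median log2 fold change was −0.04, beside −0.10 over all genes tested. ZNF638, a cofactor of C/EBP proteins early in adipogenesis in mouse cells, was the most abundant, at 20.4, 20.5 and 17.8 FPKM in NC and 17.3, 18.4 and 16.7 FPKM with TGF-β1. ZNF521, a repressor of EBF1 that holds back adipogenesis in mouse, measured 4.98, 5.51 and 5.42 FPKM in NC and 4.96, 5.39 and 5.05 FPKM with TGF-β1. Its 95% interval ran from −0.28 to 0.19 on the log2 scale, around −0.05, and under the 3 scalings the value was between 0.04 and 0.08. ZNF516, a PRDM16 partner in mouse brown fat, measured 1.74, 1.72 and 1.89 FPKM in NC and 1.94, 2.05 and 1.78 FPKM with TGF-β1.

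ZNF467 favours the fat cell over the bone cell fate in mouse. It measured 3.13, 0.529 and 0.640 FPKM in NC and 1.94, 0.677 and 1.24 FPKM with TGF-β1. Sample 1 was the highest in each group, and sample 1 also had the lowest macrophage marker sum in each group. Of samples 2 and 3, sample 3 had both the higher ZNF467 value and the higher marker sum in each group. A link between ZNF467 and the marker sum was not tested. ZNF217, a partner of the CoREST complex, ran from 2.63 to 4.31 FPKM in NC and from 3.23 to 3.77 FPKM with TGF-β1. ZNF395, which acts with PPARG in human adipogenesis, ran from 1.84 to 2.91 FPKM and from 2.14 to 2.38 FPKM. ZNF385A, needed in mouse for translation of C/EBPα mRNA, was near the filter minimum at 0.0708 to 0.430 FPKM and 0.0729 to 0.137 FPKM.

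Of 6 ZNF genes linked to Smad or TGF-β signalling, 4 were found and tested, and ZNF281 and ZNF512B were not analysed here. None of the 4 passed or had an unadjusted p below 0.05, their groups overlapped, and their median log2 fold change was 0.05. ZNF451, a SUMO ligase that represses Smad-driven transcription, measured 9.64, 8.70 and 7.73 FPKM in NC and 8.45, 8.63 and 7.34 FPKM with TGF-β1. ZNF8, a Smad1 partner in mouse, measured 1.04, 0.985 and 0.945 FPKM in NC and 1.12, 1.09 and 0.970 FPKM with TGF-β1. Their 95% intervals on the log2 scale ran from −0.41 to 0.23 and from −0.16 to 0.34. ZNF703, a repressor of TGFBR2 in human breast cells, and ZNF580 stayed between 0.399 and 0.776 FPKM in all samples.

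**Figure D5:**
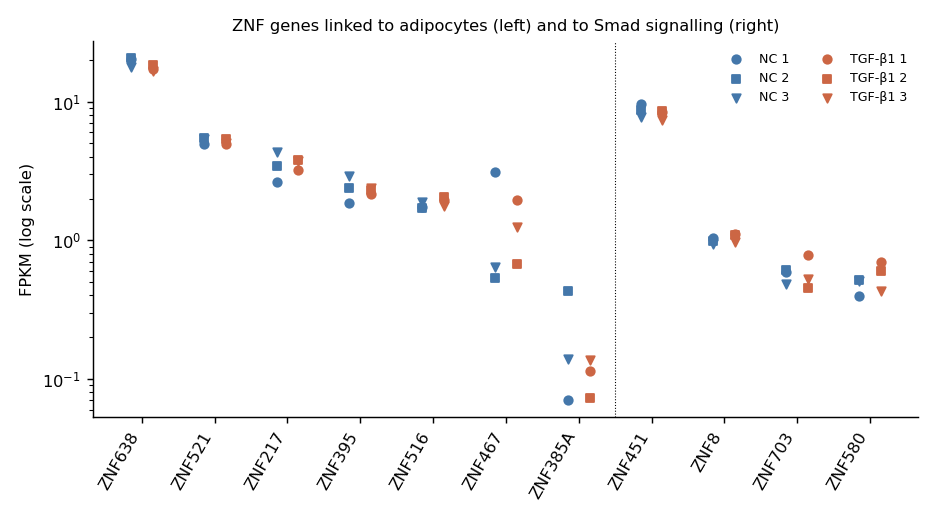
FPKM on a log axis of 7 ZNF genes linked to fat cells and 4 linked to Smad signalling, with 1 point per sample, NC in blue and TGF-β1 in orange. ZNF638 lies between 16.7 and 20.5 and ZNF521 between 4.96 and 5.51. The groups overlap for each gene, and ZNF467 spans 0.529 to 3.13.

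Of 15 ZNF genes known as chromatin and promoter factors, 14 were tested, 0 passed in limma, 1 was lower at an unadjusted p below 0.05 (ZNF384, where all genes had 7.26%), and the median log2 fold change was −0.06. Groups did not overlap for 3 of the 14, ZNF384, ZNF143 and ZNF462, all lower. That is 21.4%, where all genes had 14.3% and genes with a mean of at least 1 FPKM, as all of the 14 but ZNF462 had, 17.0%. ZNF143, an activator that marks many promoters, measured 10.3, 12.5 and 10.1 FPKM in NC and 9.67, 8.80 and 8.86 FPKM with TGF-β1. ZNF76, its closest relative, measured 2.82, 3.39 and 2.67 FPKM in NC and 2.55, 2.00 and 2.86 FPKM with TGF-β1, where the groups overlapped. ZNF462, which takes part in heterochromatin in embryonic stem cells, measured 0.782, 0.696 and 0.752 FPKM in NC and 0.669, 0.637 and 0.575 FPKM with TGF-β1.

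ZNF532, ZNF592 and ZNF687 encode partners of the chromatin reader ZMYND8. ZNF532 measured 3.49, 2.82 and 2.68 FPKM in NC and 5.00, 5.06 and 2.94 FPKM with TGF-β1. TGF-β1 samples 1 and 2 were the highest and sample 3 lay within the NC range, with a log2 fold change of 0.49 ± 0.250 (SE, n = 3 per group, limma adjusted p = 0.572). ZNF592 and ZNF687 ran from 2.71 to 3.84 FPKM and from 2.50 to 3.11 FPKM over the 6 samples, with overlapping groups. ZNF410, an activator of CHD4 in blood cells, measured 10.7, 9.66 and 10.1 FPKM in NC and 11.0, 11.0 and 10.3 FPKM with TGF-β1. CHD4 itself ran from 34.6 to 37.3 FPKM in NC and from 34.7 to 36.0 FPKM with TGF-β1. The remaining members ran from 0.761 FPKM (ZNF219) to 11.0 FPKM (ZNF644), and their groups overlapped.

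Of 10 ZNF genes listed for RNA, ribosome or spindle roles, 7 were tested and 0 passed in limma. At an unadjusted p below 0.05, 2 were lower (ZNF106 and ZNF277), or 28.6%, where all genes had 7.26%. Genes with a mean of at least 1 FPKM, as all 7 had, showed 10.1%. The median log2 fold change of the 7 was −0.07. Groups did not overlap for 3 of the 7, ZNF106, ZNF277 and ZNF706, all lower. That is 42.9% of a short list, where all genes had 14.3% and genes with a mean of at least 1 FPKM 17.0%. Under the 3 scalings the share of all genes fell to between 5.59% and 7.51%, and that of the 7 was not taken. ZNF706 was counted here, though the role given for it above is the repression of Klf4. The ribosome factors ZNF598 and ZNF622 overlapped between the groups, at 7.44 to 9.54 FPKM and 10.1 to 12 FPKM. ZNF346, which binds double-stranded RNA, stayed between 2.43 and 2.78 FPKM.

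The partners of KRAB proteins were more abundant than the ZNF genes, with a median mean level of 15.1 FPKM over 18 genes, and TRIM28 was not analysed here. None of the 18 passed in limma, 2 were lower at an unadjusted p below 0.05 (ATRX and SUMO2, where all genes had 7.26%), and their median log2 fold change was −0.12. SETDB1, the histone H3 lysine 9 methyltransferase of the complex, measured 4.96, 5.43 and 4.84 FPKM in NC and 4.95, 4.30 and 4.17 FPKM with TGF-β1. ATRX, a chromatin remodeller, measured 2.30, 1.86 and 2.09 FPKM in NC and 1.77, 0.929 and 0.876 FPKM with TGF-β1. SUMO2, a small protein that is attached to KRAB corepressors, measured 150, 134 and 122 FPKM in NC and 111, 112 and 107 FPKM with TGF-β1. Groups did not overlap for 5 of the 18, all lower with TGF-β1, among them ATRX, SUMO2, MPHOSPH8 and FAM208A. That is 27.8%, where all genes had 14.3% and genes with a mean of at least 1 FPKM, as all 18 had, 17.0%. Under the 3 scalings the share of all genes fell to between 5.59% and 7.51%. The share of the 18 under the scalings was not taken, so the surplus cannot be judged there. The lowest adjusted p was 0.457 (limma), for ATRX.

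The means of the HP1 genes CBX3 and CBX5 differed in opposite directions. CBX3 measured 37.5, 50.3 and 67.6 FPKM in NC and 30.7, 36.8 and 39.8 FPKM with TGF-β1, while CBX5 measured 2.50, 2.00 and 2.10 FPKM in NC and 3.43, 2.34 and 2.79 FPKM with TGF-β1. In both genes the groups overlapped, and the log2 fold changes were −0.50 and 0.35 (limma adjusted p = 0.554 and 0.558). CBX1 ran from 17.3 to 19.4 FPKM in NC and from 16.4 to 18.0 FPKM with TGF-β1.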

How the data were processed

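RNA of 3 NC and 3 TGF-β1 samples was analysed, grouped by the sample labels. The authors removed ribosomal RNA, aligned the reads to Sus scrofa 10.2 and made the deposited FPKM values with StringTie 1.3.1. Which aligner was used is not given in the sources. The gene table held FPKM and no counts, so the depth in reads is unknown, and its lncRNA tables were not used here.

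Genes with FPKM above 0.1 in at least 3 of 6 samples were tested on log2(FPKM + 0.1) by limma (3.58.1, R 4.3.3). The fit was lmFit, then eBayes at default settings, two-sided. Benjamini-Hochberg adjustment ran over all 17708 genes, with a threshold of 0.1. The study set the same false discovery rate together with a fold change above 1, which was not part of the main test here. The script was tested on simulated data. Figures were drawn in Python 3.11.15. Low FPKM values (under 0.5) that stood for 1 to 4 whole fragments gave the relative depth.

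The members, role lists and marker lists were chosen with earlier results of these data known. Named were members past the threshold, up to 10 members in each direction by lowest p with separate groups and a mean of at least 1 FPKM, the 10 with the highest mean, the role lists, the corepressor list, members at 0 in a whole group and those at the edge of the filter. The values of 1 gene of the corepressor list are not reported here. No sequence was printed. KRAB domains were to be counted in protein sequences, which were not used here, so a hand-written list took their place. Not found by name, besides those named with the results, were ZNF148, ZNF593, ZNF326 and ZNF330 and the markers LPL, HBB, ALAS2, MYOD1 and MYH3. Alternatives were other pseudocounts, filters, scalings, priors and thresholds, the replicate number as a block, and leaving out each sample. Values without ZNF510 or ZNF322A were added after seeing the data.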

Additional observations from a re-analysis of the deposited data

How the results depend on the processing

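Without the filter, with a mean minimum of 1 FPKM, a pseudocount of 1 or 0.01, 3 other scalings, a trended and robust prior, an adjusted p of 0.05 or an absolute log2 fold change above 1, limma called 0 ZNF genes and, where run, 0 corepressor genes. Leaving out a sample gave 0 to 1 ZNF genes, the 1 being ZNF558 without TGF-β1 replicate 2, and a ZNF median from −0.17 to −0.09. The ZNF median was −0.018, −0.027 and 0.0016 after quantile normalization, median-ratio scaling and scaling to the same total. Under these, 13, 14 and 21 ZNF genes were separate and higher and 15, 17 and 14 separate and lower, and 3 were higher under the mean minimum of 1 FPKM. Signs turned for ZNF521 (0.040, 0.053 and 0.082 under the 3 scalings) and ZNF451 (0.0079 and 0.037 under the last 2). Leaving out NC replicate 2, NC replicate 3 or TGF-β1 replicate 1 turned ZNF467 to −0.27, −0.15 and −0.17 (highest value 0.91, without NC replicate 1), and leaving out NC replicate 2 turned ZNF385A to 0.031 (lowest value −0.79, without NC replicate 1). The cause was not tested. Of 623 alternatives over 42 named genes, 613 kept sign and call. Over all genes, 17 calls became 49 with a pseudocount of 0.01, 11 with no filter, 5 with the mean minimum, 31 and 27 after quantile and median-ratio scaling, 46 with the trended prior, 9 at 0.05, and 41, 36 and 30 without TGF-β1 replicates 1, 2 and 3. Deviations of same-numbered samples correlated at 0.251, 0.00393 and 0.196, so the numbers were not taken to pair the samples. With the replicate block, 0 ZNF genes, 0 corepressor genes and 3 of all genes were called, and the ZNF median stayed at −0.12. The counts behind each FPKM are unknown, so counting error could not be given.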
